A study of Mus musculus with 7 samples.

Results

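The genes described here are 7 members of the TGF-beta and YAP pathways, namely the targets Pmepa1, Smad7, Thbs1, Ctgf and Cyr61 and the ligands Tgfb1 and Tgfb2. They were taken by symbol from a list chosen with earlier results of these data known. Of the 11751 genes in experiment (ii), 6 were members, and Tgfb1 was not analysed here in that experiment. All 7 were among the 12145 genes of library 1 of experiment (i), 6 among the 8868 genes of library 2 and 1, Thbs1, among the 3315 genes of library 3. The cells came from mice with mammary tumours driven by the polyoma middle T transgene (PyMT), a model of breast cancer, and were profiled one by one by CEL-seq, which counts the 3′ ends of transcripts with molecular barcodes. Experiment (ii) had 4 libraries with cells sorted by the adhesion protein E-cadherin (Ecad): BEpos and BEneg are Ecad-positive and Ecad-negative cells that the labels call circulating tumour cells, and TEneg and TEpos are Ecad-negative and Ecad-positive cells of the solid tumour. BEpos cells were in library 1 alone. Experiment (i) had 3 libraries of solid tumour cells sorted as Ecad-positive. All groups share the PyMT background. The strain, age and number of the mice and the promoter of the transgene are not stated in the labels, and cells are defined by the Ecad sort, so the groups are sorted fractions and not pure cell types.

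TGF-beta ligands are secreted in a latent form and, once released, bind a pair of serine/threonine kinase receptors that phosphorylate Smad2 and Smad3, which enter the nucleus with Smad4 and switch on target genes. YAP and TAZ are co-activators that the Hippo kinases keep out of the nucleus; when released they work through the DNA-binding TEAD factors. The pathways share targets, Ctgf above all, and in mammary tumours TGF-beta is best known as an inducer of epithelial-to-mesenchymal transition.

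The promoters of 1 target and 1 ligand are shown because the short words bound by TEAD and by Smad factors can be read in them directly. They run from 250 bases before to 50 bases after the gene's start (RefSeq, GRCm38.p6), 5′ to 3′ on the gene's strand. Cyr61, listed in RefSeq as Ccn1, is at chr3:145649936-145650235 and Tgfb2 at chr1:186705940-186706239, both on the minus strand. Capitals mark the TEAD word CATTCC and the Smad word CAGAC, searched on both strands.
Cyr61: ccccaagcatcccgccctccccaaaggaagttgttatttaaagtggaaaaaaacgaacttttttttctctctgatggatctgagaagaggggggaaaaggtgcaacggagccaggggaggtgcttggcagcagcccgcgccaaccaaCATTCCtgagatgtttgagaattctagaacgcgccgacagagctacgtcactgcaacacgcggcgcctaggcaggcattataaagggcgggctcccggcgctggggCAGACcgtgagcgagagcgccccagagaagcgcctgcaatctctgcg
Tgfb2: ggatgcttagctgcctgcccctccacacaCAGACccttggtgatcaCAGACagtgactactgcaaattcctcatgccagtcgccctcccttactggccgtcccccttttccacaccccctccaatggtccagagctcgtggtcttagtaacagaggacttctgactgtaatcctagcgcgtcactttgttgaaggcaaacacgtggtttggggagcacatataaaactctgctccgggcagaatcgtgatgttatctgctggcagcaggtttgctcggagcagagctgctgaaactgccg
The Cyr61 window holds CATTCC at position -103 and CAGAC at position 4, counted from the start site, and the Tgfb2 window holds CAGAC at -221 and -204. The Tgfb1 window holds neither word. CATTCC was in 14.7% of 32851 promoters of this length, CAGAC in 49.6% and both in 7.54%, so a match describes the letters and not a bound site. The promoters of Pmepa1, Ctgf and Thbs1 are not shown.

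Wells with at least 500 transcripts were used, which left 20 BEpos, 60 BEneg, 69 TEneg and 71 TEpos wells in experiment (ii) and 95, 65 and 1 wells in libraries 1 to 3 of experiment (i). The median well held 3803 transcripts in BEpos, 819 in BEneg, 1603 in TEneg and 2064 in TEpos. Summed per library, transcripts came to 75125 in BEpos, 11172 to 25379 in BEneg, 17189 to 109892 in TEneg and 27416 to 71894 in TEpos. Of the TEneg sum of library 2, 55.7% came from 1 well. The markers only partly matched the labels. Neutrophil genes took 2.06% of BEpos and 4.58 to 10.4% of BEneg transcripts, against 0.107 to 0.433% in TEneg and 0.180 to 0.386% in TEpos. Epithelial genes took 0.0653 to 0.135% in BEneg, 0.222 to 0.416% in TEneg and 0.440 to 0.719% in TEpos. In BEpos, sorted as Ecad-positive, they took 0.00934%, below every BEneg library, with 6 of 11 measured genes at 0. The sort gene Cdh1 averaged 3.88 ± 1.59 transcripts per 10000 in BEneg, 4.16 ± 1.94 in TEneg and 5.898 ± 3.404 in TEpos (SD, n = 4 libraries), and BEpos held 1 Cdh1 transcript. Every comparison with BEneg is therefore one between wells that also differ in immune cell transcripts.

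The solid tumour comparison set Ecad-negative (TEneg) against Ecad-positive (TEpos) cells. Pmepa1 was the only one of the 3 members that could be tested here to pass, and it was higher in TEneg. Cyr61 and Thbs1 overlapped between the populations, and Ctgf, Tgfb2 and Smad7 were too low for the test. The test was edgeR's quasi-likelihood test on sums per library, with library as a block, over 490 genes, and a gene was called at an adjusted p under 0.05. It called 31 genes (6.33% of those tested), 23 higher in TEneg (4.69%) and 8 lower (1.63%). The median fold change of the 3 members was 0.51 on the log2 scale, against -0.01 over all genes tested.

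Pmepa1 encodes a membrane protein that TGF-beta induces and that holds Smad2 and Smad3 away from the receptor, and its gene lies at chr2:173224458-173276533 on the minus strand (GRCm38). Its level in TEneg libraries 1 to 4 was 12.8, 10.2, 7.18 and 12.9 transcripts per 10000, against 4.23, 4.21, 6.36 and 6.97 in TEpos. The lowest TEneg library lay above the highest TEpos library, by a small margin, and TEneg was higher in 4 of 4 libraries. Such separation upwards was seen in 5.51% of the 490 genes. The means were 10.8 ± 2.69 in TEneg and 5.44 ± 1.43 in TEpos (SD, n = 4 libraries), and the log2 fold change was 1.21 (SE 0.27, edgeR adjusted p = 0.0039). The share of wells with a Pmepa1 transcript differed less, at 60.9% ± 8.99 in TEneg and 54.6% ± 7.57 in TEpos. Once every well was thinned to 500 transcripts, which removes the difference in depth, the shares were 31.1% ± 5.42 in TEneg and 20.4% ± 4.28 in TEpos. The highest well held 76 Pmepa1 transcripts in TEneg and 10 in TEpos. That highest TEneg well was the large one of library 2, with 12.5 per 10000 against 7.46 in the rest of its sum, and the fold change was still called without it.

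**Figure D1:**
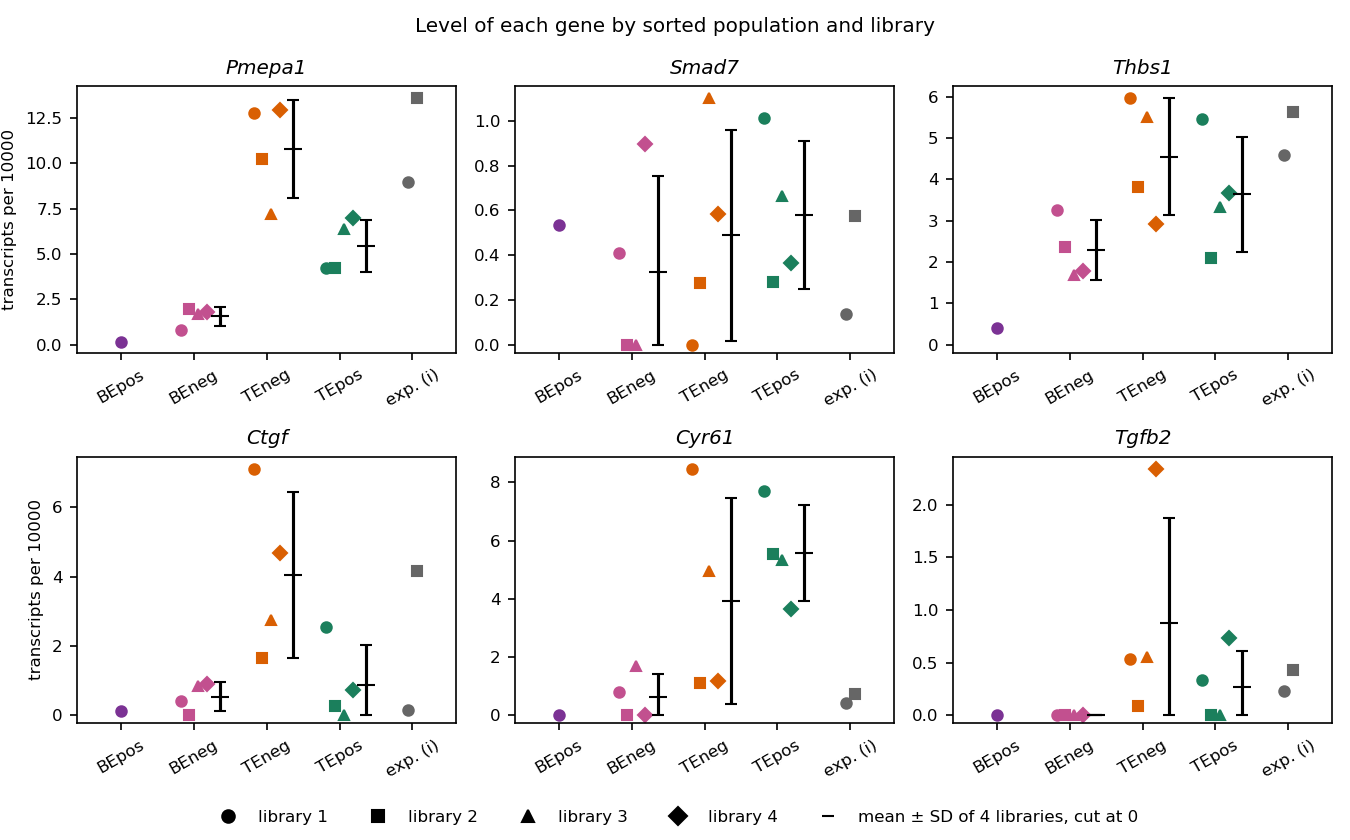
Transcripts per 10000 of 6 genes (y axis, a scale of its own in each panel) in the sorted populations and in experiment (i) (x axis); each point is the sum of the wells of 1 library, and the bar is the mean with 1 SD of the 4 libraries, cut off at 0. For Pmepa1 all 4 TEneg points lie above all 4 TEpos points, and all 4 BEneg points lie below both; for Cyr61 the TEneg points spread from 1.10 to 8.46.

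Pmepa1 was higher in tumour wells with transcripts of basal and myoepithelial genes, and the part of such cells in its difference was not tested. These genes, 9 of 11 listed, took 0.121 to 1.03% of TEneg transcripts and 0.0371 to 0.0533% of TEpos transcripts. Acta2 was the only one of them that passed the filter on low counts. The list holds Tagln, which is also on the list of TGF-beta targets, so the split of wells below is not independent of those targets. In TEneg, the 33 wells with at least 2 such transcripts had 13.2 Pmepa1 transcripts per 10000, against 4.95 in the 36 wells without. By library the wells with these transcripts had 15.2, 12.7, 10.9 and 13.6 per 10000, against 6.09, 4.15, 2.49 and 11.3 in the wells without, so the wells with basal transcripts were higher in 4 of 4 libraries. They were also deeper, with a median of 1963 against 1242 transcripts, but after thinning Pmepa1 was still found in 42.1% of them against 20.4%. The large well of library 2 was among the wells with basal transcripts. It gave 76.3 of the 99.6 Pmepa1 transcripts in those wells of library 2. The same order held in TEpos, where the 11 wells with basal transcripts had 6.58 per 10000 and the 60 without had 4.37. With the basal wells of both populations left out, the log2 fold change was 0.41 (edgeR adjusted p = 0.619) and the call was lost. It was also lost without library 1 (0.999, edgeR adjusted p = 0.109), without the filter on low counts (0.85, edgeR adjusted p = 0.318) and with limma on the means of wells (0.78, adjusted p = 0.159). Leaving out tumour wells with endothelial transcripts instead kept the call, although endothelial genes took 0.0583 to 0.182% of TEneg against 0.00697 to 0.0599% of TEpos transcripts. The settings without basal and without endothelial wells were not alike. Libraries 1 to 4 kept 6, 15, 8 and 7 TEneg wells and 389 genes were tested without basal wells. Without endothelial wells they kept 13, 10, 7 and 12 TEneg wells, and 468 genes were tested. Fibroblast genes took 0.0457 to 0.135% in TEneg and 0.0300 to 0.0585% in TEpos, with Fap and Postn at 0 in TEpos, and their part in the result was not tested.

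**Figure D2:**
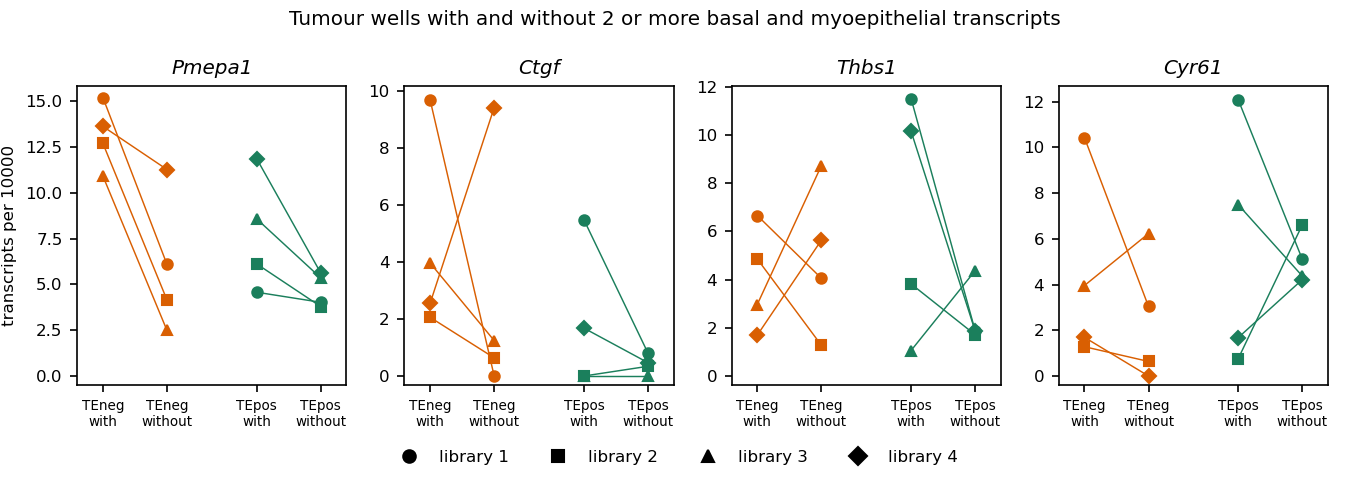
Transcripts per 10000 of 4 targets (y axis) in TEneg and TEpos wells with and without at least 2 basal or myoepithelial transcripts (x axis); each point is 1 library. In TEneg, Pmepa1 was at 10.9 or above in all 4 libraries of wells with these transcripts, and between 2.49 and 11.3 in wells without.

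Ctgf, a secreted matrix protein of the CCN family that both TGF-beta and YAP induce, was also higher in TEneg than in TEpos in 4 of 4 libraries, but it stayed under the filter on low counts. Its gene is at chr10:24595442-24598683 on the plus strand and overlaps Gm15270 on the minus strand; no source used here says whether counting used the strand, so the pair cannot be told apart. TEneg libraries 1 to 4 held 26.5, 18.2, 5.02 and 8.05 estimated transcripts, against 15.1, 2.004, 0 and 2.004 in TEpos. Scaled to depth that was 7.11, 1.65, 2.76 and 4.68 per 10000 in TEneg and 2.54, 0.279, 0 and 0.731 in TEpos. Both populations were highest in library 1, and TEpos library 1 lay above TEneg library 2, so the populations overlapped. Without a filter on low counts, where 0.866% of 11429 genes were called, Ctgf passed with a fold change of 1.89 on the log2 scale (SE 0.51, edgeR adjusted p = 0.0285). That call was lost when any 1 of libraries 1 to 4 was left out (log2 fold changes of 2.72, 1.75, 1.67 and 1.81; edgeR adjusted p of 0.101, 0.209, 0.179 and 0.170), an alternative chosen after seeing the data. A transcript was found in 25.4% ± 4.94 of TEneg wells and 12.4% ± 11.5 of TEpos wells, and after thinning in 14.4% ± 3.26 in TEneg and 4.01% ± 4.44 in TEpos. In the TEneg wells with basal transcripts Ctgf was at 3.89 per 10000 against 1.47 in those without. This order held in 3 of 4 libraries, while library 4 had 2.55 in wells with and 9.41 in wells without. Without the basal wells the log2 fold change was 1.18 (edgeR adjusted p = 1.0).

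Cyr61, the CCN family member used most often beside Ctgf as a readout of YAP, did not follow Ctgf in the tumour. Its level was 8.46, 1.10, 4.96 and 1.17 per 10000 in TEneg libraries 1 to 4 and 7.69, 5.54, 5.35 and 3.66 in TEpos. TEneg was higher in library 1 and lower in the other 3, and the populations overlapped. The log2 fold change, -0.70 (SE 0.40, edgeR adjusted p = 0.359), did not pass, nor did it in any of 12 alternatives, where it ran from -1.31 to -0.03. Cyr61 is also an immediate early gene, and the list of such genes took 0.370 to 1.27% of TEneg and 1.14 to 1.81% of TEpos transcripts. Of its 14 tested members, Cyr61 among them, 0 rose and 3 fell in TEneg, where 4.69% of all genes tested rose and 1.63% fell. Within TEneg, wells with at least 2 endothelial transcripts had 1.18 Cyr61 transcripts per 10000 (27 wells) against 5.75 in the others (42 wells), and Ctgf had 0.913 against 6.59. Both CCN genes were thus lower in the summed endothelial wells. These 27 included the large well of library 2, with 0.493 Cyr61 and 0.825 Ctgf transcripts per 10000. Library 2 gave 12 of the 27. Library 1, where both genes were highest in TEneg, gave 13 of the 42 others. The contrast is not split by library here, so it was not separated from the mix of libraries. With the endothelial wells left out the log2 fold change of Cyr61 was -0.03.

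Thbs1, which encodes thrombospondin-1, a matrix glycoprotein that can release latent TGF-beta and is itself a target, was at 5.96, 3.83, 5.51 and 2.92 per 10000 in TEneg and 5.45, 2.10, 3.33 and 3.67 in TEpos libraries 1 to 4. Library 4 was the exception to a higher TEneg value, and the populations overlapped. The log2 fold change was 0.51 (SE 0.34, edgeR adjusted p = 0.459), and after thinning the transcript was in 17.4% ± 7.64 of TEneg and 14.3% ± 3.52 of TEpos wells. In TEneg library 2, the large well held 33.04 of the transcripts, at 5.40 per 10000 against 1.86 in the rest of the sum. The gene lies at chr2:118111876-118127133 on the plus strand and overlaps Gm29233 on the minus strand.

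Smad7, the inhibitory Smad that TGF-beta induces as feedback, was near the limit of detection everywhere. TEneg libraries 1 to 4 held 0, 3, 2 and 1 transcripts and TEpos 6, 2, 2 and 1, or 0.489 ± 0.472 per 10000 in TEneg and 0.580 ± 0.331 in TEpos. TEneg was higher in 2 of 4 libraries. Even without the filter on low counts the test did not pass (edgeR adjusted p = 1.0), and at a few transcripts per sum a difference was not detectable.

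**Figure D3:**
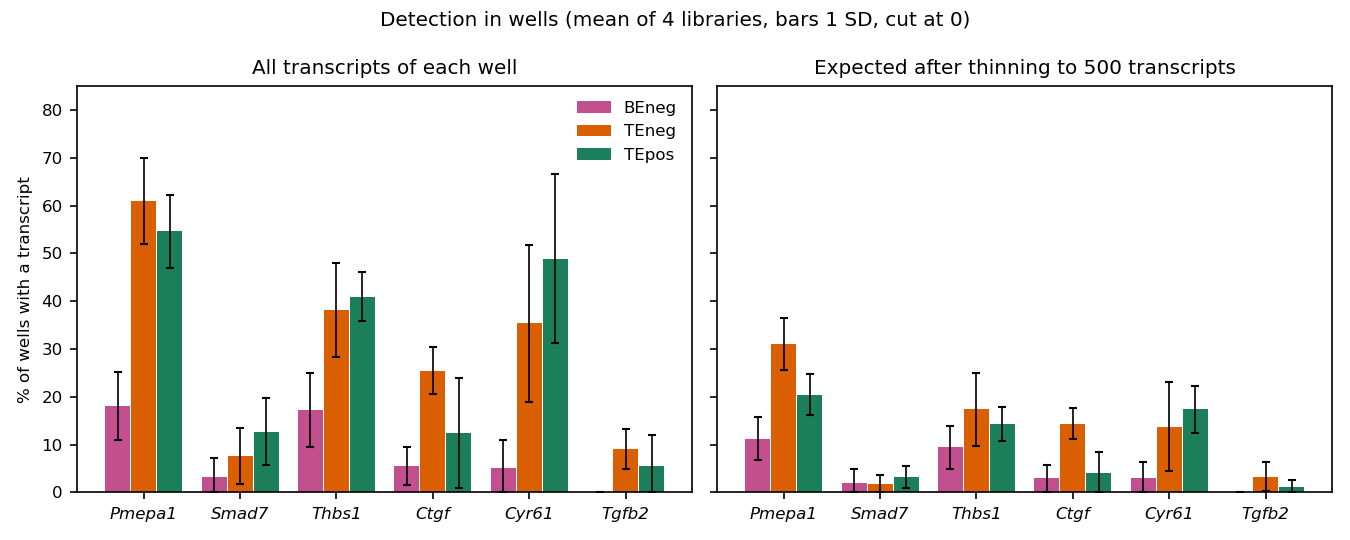
Mean percentage of wells with a transcript of each gene, as found and after thinning each well to 500 transcripts, by population; bars are 1 SD of the 4 libraries, cut off at 0. Thinned shares of Pmepa1 were 11.2% in BEneg, 31.1% in TEneg and 20.4% in TEpos.

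The second comparison set the Ecad-negative cells sorted from blood against those of the tumour. Pmepa1 and Cyr61 fell in BEneg, and Thbs1 did not pass. The count of 2 lower among 3 tested members stands against 201 of 490 genes called (41%), 84 of them lower (17.1%). The members' median log2 fold change was -2.48, with -0.05 over all genes tested. BEneg wells were shallow, so a single transcript weighs 0.395 per 10000 or more in their sums.

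Pmepa1 was at 0.816, 1.97, 1.69 and 1.79 per 10000 in BEneg libraries 1 to 4, with a mean of 1.57 ± 0.515 (SD, n = 4 libraries) against 10.8 ± 2.69 in TEneg. Every BEneg library lay below every TEneg library, a separation seen downwards in 14.7% of genes. The log2 fold change was -2.62 (SE 0.40, edgeR adjusted p = 4.19e-06) and was called under all 13 alternatives run (-3.93 to -1.58). No BEneg well held more than 1 Pmepa1 transcript. The thinned share of wells with one was 11.2% ± 4.49 in BEneg against 31.1% ± 5.42 in TEneg.

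Cyr61 was at 0.816, 0, 1.69 and 0 per 10000 in BEneg, that is 2 of 4 libraries held none, against 3.92 ± 3.53 in TEneg. BEneg was lower in 4 of 4 libraries, although BEneg library 3 lay above TEneg libraries 2 and 4. Its log2 fold change was -2.48 (SE 0.74, edgeR adjusted p = 0.0078), and without library 1 it was -1.99 and not called (edgeR adjusted p = 0.175). Ctgf held 1, 0, 1 and 1 transcripts in BEneg libraries 1 to 4, at 0.537 ± 0.420 per 10000 against 4.05 ± 2.39 in TEneg, with no overlap. Such separation downwards was seen in 14.7% of the 490 genes tested. Ctgf was not among those genes, and the share among genes this low was not counted. Without a filter on low counts, where 4.03% of genes were called, its log2 fold change was -3.16 (SE 0.76, edgeR adjusted p = 0.00151), and the call was lost without library 1 (-2.64, edgeR adjusted p = 0.186) and without the basal wells (-1.51, edgeR adjusted p = 0.915).

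Thbs1 had the smallest fold change of the 3 tested members. Its BEneg libraries 1 to 4 were at 3.27, 2.38, 1.69 and 1.79 per 10000, against 4.55 ± 1.43 in TEneg. BEneg was lower in 4 of 4 libraries, with overlap, and the log2 fold change was -0.75 (SE 0.43, edgeR adjusted p = 0.174). It passed in 1 of 9 alternatives, limma on the means of wells (-0.79, adjusted p = 0.0441). Thbs1 is also made by monocytes and platelets. Platelet genes took 0.00816 to 0.0237% of BEneg transcripts, with Itga2b, Gp9 and Treml1 at 0, and 0 to 0.0772% of TEneg transcripts. Monocyte and macrophage genes took 1.20 to 1.89% of BEneg transcripts, and their part in the Thbs1 level was not tested. Smad7 held 1, 0, 0 and 1 transcripts in BEneg, against 0, 3, 2 and 1 in TEneg.

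Against TEpos, the third comparison, Cyr61 and Pmepa1 were again lower in BEneg, and here Cyr61 had the larger fold change. This comparison shares the BEneg sums with the second, so it is not separate evidence about them. Of the 490 genes 236 were called (48.2%), 103 of them lower in BEneg (21%), and the median log2 fold change was -1.40 over the 3 members and -0.08 over all genes. Cyr61 averaged 0.627 ± 0.807 per 10000 in BEneg and 5.56 ± 1.65 in TEpos (SD, n = 4 libraries); on the log2 scale the difference was -3.18 (SE 0.68, edgeR adjusted p = 0.000329). Pmepa1 averaged 1.57 ± 0.515 in BEneg and 5.44 ± 1.43 in TEpos; its log2 difference was -1.40 (SE 0.43, edgeR adjusted p = 0.0084). For each gene the highest BEneg library lay below the lowest TEpos library, as it did for 25.9% of the 490 genes, and both calls were kept under every alternative in which the gene was tested (12 for Cyr61 and 13 for Pmepa1). Thbs1 did not pass, with a fold change of -0.24 on the log2 scale (SE 0.43, edgeR adjusted p = 0.698), and was lower in BEneg in 3 of 4 libraries. Ctgf, at 0.537 ± 0.420 in BEneg and 0.888 ± 1.14 in TEpos, did not pass without the filter either, where 5.08% of genes were called (log2 fold change -1.26, SE 0.90, edgeR adjusted p = 0.685).

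**Figure D4:**
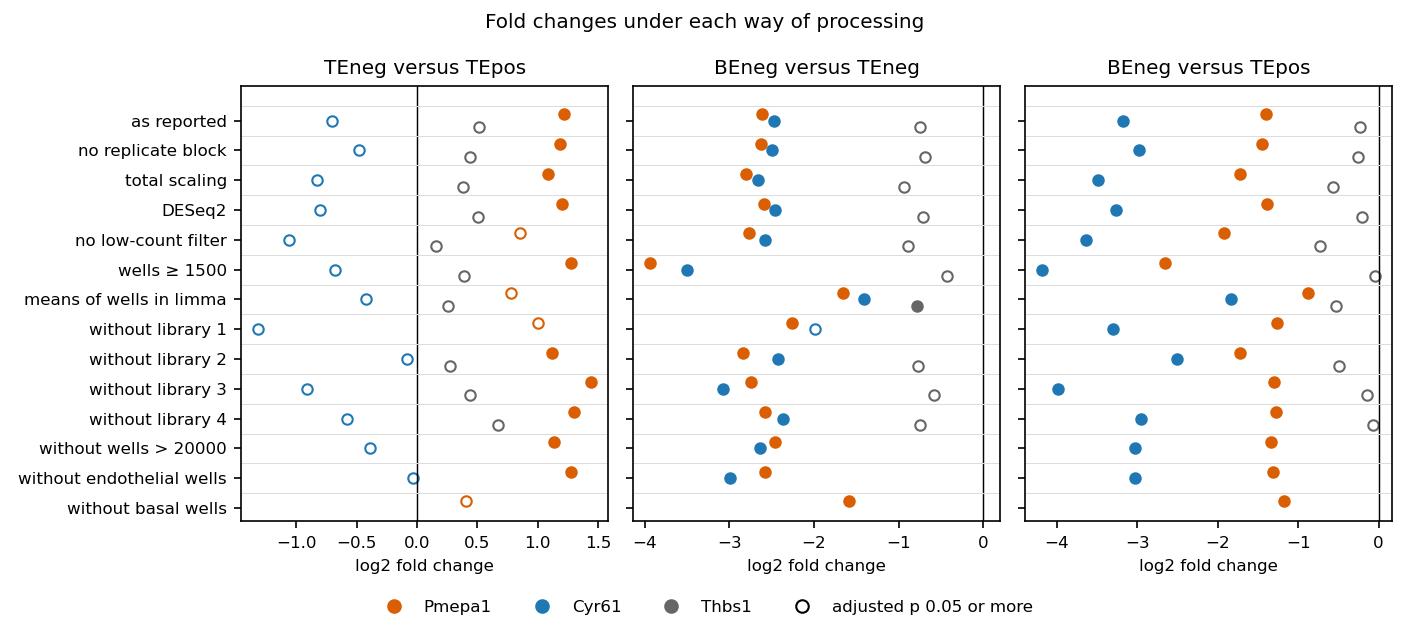
Log2 fold changes (x axis) of Pmepa1, Cyr61 and Thbs1 in the 3 comparisons under each way of processing (y axis); filled points have an adjusted p under 0.05, open points 0.05 or more, and a missing point means that the gene was filtered out. Pmepa1 in TEneg against TEpos ran from 0.41 to 1.44 and was open in 4 of 13 alternatives, while both comparisons with BEneg stayed filled for Pmepa1; the means of wells are on the log2(value + 1) scale.

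BEpos, 20 wells of library 1 with no replicate, had fewer Pmepa1, Thbs1, Ctgf and Cyr61 transcripts per 10000 than the mean of each other population of experiment (ii), although its wells were the deepest. It held 1 Pmepa1 transcript, or 0.133 per 10000 (95% Poisson interval 0.00337 to 0.742, counting error only), 1 Ctgf transcript and 0 Cyr61 transcripts (interval up to 0.491 per 10000). Thbs1 had 3 transcripts (0.400 per 10000) and Smad7 had 4 (0.533 per 10000). The intervals of the 4 BEneg libraries, whose Pmepa1 levels rest on 2, 5, 2 and 2 transcripts, overlapped that of BEpos, and no test was possible with 1 library. Leukocyte genes took 1.20% of BEpos transcripts and BEpos held 1 Cdh1 transcript, so the gene of the sort marker was near 0 in these wells.

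The ligand Tgfb2 was rare. TEneg libraries 1 to 4 held 2, 1, 1 and 4 transcripts, against 2, 0, 0 and 2 in TEpos, and BEneg and BEpos held 0. TEneg was higher than TEpos in 4 of 4 libraries by level (0.538, 0.0912, 0.550 and 2.34 per 10000, against 0.336, 0, 0 and 0.731), with overlap, and 3 of the 4 transcripts of TEneg library 4 were from 1 well. Without a filter on low counts the gene passed in no comparison (edgeR adjusted p = 1.0 for TEneg against TEpos and 0.278 for BEneg against TEneg). BEneg, with 0, was below TEneg in 4 of 4 libraries, with no overlap, as any count above 0 would give. Pooled over the population, the 0 transcripts in BEneg have a 95% Poisson interval of up to 0.505 per 10000 (counting error only). The pooled TEneg level was 0.440 (0.189 to 0.864), and the TEneg libraries averaged 0.880 ± 0.996. The pooled intervals overlapped, so a difference was not shown at this depth. Tgfb2 lies at chr1:186622792-186705989 on the minus strand and overlaps Gm26169 and Gm29491 on the plus strand. Tgfb1, at chr7:25687002-25705077 on the plus strand, had 1 transcript in 1 of 95 wells of library 1 of experiment (i), or 0.0229 per 10000.

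Wells with a ligand transcript were then compared with wells without one, as a description, because a well is not a replicate. In TEneg, the 6 wells with Tgfb2 had 11.6 Pmepa1 transcripts per 10000 and the 63 others 10.2. After thinning, 25.2% of the wells with Tgfb2 and 31.3% of the others held Pmepa1. The large well of library 2 is one of the 6 and held 76.3 Pmepa1 transcripts, at 12.5 per 10000. The summed Pmepa1 level in wells with Tgfb2 rests on this well, so it says little about the other wells. The same holds for Ctgf and Cyr61, at 0.825 and 0.493 transcripts per 10000 in the large well. Ctgf was found in 3 of the 6 wells with Tgfb2 and 15 of the 63 without, and after thinning in 14.2% against 14.1%. In TEpos, the 4 wells with Tgfb2 had 4.18 Pmepa1 transcripts per 10000, against 5.003 in those without. The related ligand Tgfb3 was in more wells. Pmepa1 was at 12.4 per 10000 in the 15 TEneg wells with it and 8.73 in those without, and the wells with it were deeper (median 2543 against 1426 transcripts), but the order held after thinning, with Pmepa1 in 41.7% against 27.8% of wells. The large well of library 2 is among these 15 too, so their summed level also rests largely on it. In TEpos, the 17 wells with Tgfb3 had 5.06 per 10000 against 4.90 in those without, and 19.6% against 20.5% after thinning. In library 1 of experiment (i), where 57 of 95 wells held Tgfb3, the difference was small, at 8.997 against 8.849 per 10000 and 35.18% against 34.01% thinned detection. In the same library the 9 wells with Tgfb2 had 7.78 Pmepa1 transcripts per 10000 and those without had 9.14. Library 2 of experiment (i) had 3 wells with Tgfb3, at 18.02 Pmepa1 transcripts per 10000 against 13.3 in the others, and thinned detection of 33.03% against 38.1%. Levels of Pmepa1 were thus higher in the wells with Tgfb3 in each population that had more than 1 such well, while thinned detection had the opposite order in TEpos and in library 2.

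Levels of the targets were also set against each other from well to well, as a description. Over the 69 TEneg wells, Spearman's rho of levels was 0.29 for Pmepa1 with Cyr61, 0.25 for Pmepa1 with Ctgf and 0.01 for Ctgf with Cyr61. Over the 71 TEpos wells it was 0.31 for Thbs1 with Cyr61, 0.25 for Ctgf with Cyr61 and 0.03 for Pmepa1 with Thbs1. Wells share libraries and differ in depth, most values are 0, and at this sparsity no weak correlation is read as a finding. Over the 12 sums of BEneg, TEneg and TEpos, which share libraries and populations, the genes most like Pmepa1 in log2 counts scaled to library size were Igfbp5 (Pearson's r 0.918), Sparcl1 (0.894) and Nedd4 (0.889). Genes most like Cyr61 included Rpl7a (0.862) and Gm6402 (0.814), and those most like Thbs1 were Crip2 (0.699), Tpt1 (0.668) and Nedd4 (0.657). Among the members, r was 0.445 for Pmepa1 with Cyr61, 0.485 for Pmepa1 with Thbs1 and 0.432 for Cyr61 with Thbs1.

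Experiment (i) gave the members in Ecad-positive cells at greater depth in 1 library. Its sums were 438102 transcripts in library 1 and 69976 in library 2, and the single usable well of library 3 held no Thbs1. Pmepa1 was at 8.96 per 10000 in library 1 (95% Poisson interval 8.11 to 9.90, in 78 of 95 wells) and 13.6 in library 2 (10.98 to 16.6, in 33 of 65 wells). Thbs1 was at 4.59 (3.98 to 5.27) in library 1 and 5.64 (3.96 to 7.62) in library 2. These intervals cover counting error only, and those of Thbs1 overlapped while those of Pmepa1 did not. Ctgf set the libraries apart most, at 0.160 per 10000 in library 1 (0.0642 to 0.329) and 4.17 in library 2 (2.78 to 5.95). Tagln, on both the basal list and the list of TGF-beta targets, was at 0.252 per 10000 in library 1 and 27.1 in library 2. The basal list as a whole was not summed for experiment (i), and the part of Tagln in the Ctgf level was not tested. Cyr61 was low in both, at 0.412 (0.244 to 0.649) and 0.716 (0.232 to 1.67) per 10000, below each of the 4 TEpos libraries of experiment (ii). The experiments were separate tables, so levels were not tested across them. Tgfb2 was at 0.229 and 0.431 per 10000 and Smad7 at 0.137 and 0.574 in libraries 1 and 2.

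The other genes of the pathways were mostly too low to test one by one. Of 28 listed TGF-beta targets 25 were measured and 5 tested: Pmepa1, Thbs1, Tgfbi, Junb and Id2. In TEneg against TEpos 1 rose, Pmepa1, and 0 fell, where 4.69% of all genes tested rose and 1.63% fell. Tgfbi, with 10 transcripts in TEneg and 0 in TEpos, did not pass (edgeR adjusted p = 0.0596) but did in 4 of 13 alternatives. In BEneg against TEneg 2 rose and 1 fell, where 23.9% of all genes tested rose and 17.1% fell, and the list's median log2 fold change was -0.46, against -0.05 over all genes. One of those that rose was Tgfbi, a secreted matrix protein also made by monocytes and macrophages, with 8.09 ± 2.45 per 10000 in BEneg and 0.725 ± 0.765 in TEneg (log2 fold change 3.86, SE 0.63, edgeR adjusted p = 1.83e-05). It was also called against TEpos, where it had 60 transcripts in BEneg and 0 in TEpos (edgeR adjusted p = 1.12e-07). Pmepa1 and Tgfbi, both known as TGF-beta targets, thus went in opposite directions in BEneg. Tgfbi passed the filter on low counts through its BEneg sums alone, so its calls in BEneg are not independent of that entry. Monocyte and macrophage genes took 1.20 to 1.89% of BEneg, 0.0376 to 0.171% of TEneg and 0.0265 to 0.0589% of TEpos transcripts. Neutrophil and leukocyte genes were also higher in BEneg, and the part of any of these cells in the Tgfbi level was not tested. The other target that rose in BEneg against TEneg was Junb, an AP-1 subunit. It was at 6.84 ± 2.62 per 10000 in BEneg and 4.40 ± 1.90 in TEneg (log2 fold change 1.005, SE 0.37, edgeR adjusted p = 0.0285). Junb was higher in 3 of 4 libraries, and its call was lost in 11 of 13 alternatives, among them without library 2 (0.31, edgeR adjusted p = 0.661) and without library 4 (1.03, edgeR adjusted p = 0.0671).

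The summed shares of the 7 pathway lists were highest in a TEneg library, as were those of the basal, endothelial and fibroblast lists, so this is not particular to the pathways. TGF-beta targets took 0.177 to 0.359% of transcripts in BEneg (median 0.273%), 0.366 to 0.757% in TEneg (median 0.570%) and 0.264 to 0.411% in TEpos (median 0.336%). Tagln, which is also on the basal list, gave 3 of these transcripts in BEneg, 112 in TEneg and 20 in TEpos. The pathway inhibitors, 10 of 12 measured and Pmepa1 among them, took 0.0204 to 0.0355% in BEneg, 0.105 to 0.222% in TEneg and 0.0644 to 0.0990% in TEpos. Receptors, 8 of 12 measured, took 0.0158 to 0.0538% in BEneg, 0.0440 to 0.105% in TEneg and 0.0252 to 0.0377% in TEpos. None of the receptors was tested alone; Bmpr1a, a type I receptor for bone morphogenetic proteins, had the most TEneg transcripts, 38, against 3 in BEneg and 15 in TEpos. Smads, 5 of 8 measured, took 0.00844 to 0.0179% in BEneg, 0.0188 to 0.0385% in TEneg and 0.0139 to 0.0256% in TEpos. Ligands and latency proteins, 10 of 21 measured, took 0.0204 to 0.0718% in BEneg, 0.0661 to 0.110% in TEneg and 0.0399 to 0.0878% in TEpos.

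YAP targets took 0.0538 to 0.0844% of transcripts in BEneg, 0.132 to 0.429% in TEneg and 0.107 to 0.175% in TEpos, from 17 of 24 listed genes. Igfbp3 alone made up 0 to 22.2% of this sum in BEneg, 36.3 to 60.96% in TEneg and 0 to 14.6% in TEpos, and without it the list took 0.0538 to 0.0676% in BEneg, 0.0844 to 0.218% in TEneg and 0.0967 to 0.168% in TEpos, so that TEneg and TEpos overlapped. Only Cyr61 and Igfbp3 could be tested. Igfbp3 passed the filter on low counts through its TEneg sums alone, the population where it was high. Its calls against TEneg are therefore not independent of how it entered the test. Igfbp3, whose product binds insulin-like growth factors and which TGF-beta induces too, was at 0.816, 1.58, 1.69 and 0 per 10000 in BEneg libraries 1 to 4, at 21.1, 4.81, 22.4 and 17.8 in TEneg and at 0.672, 1.68, 0.997 and 0 in TEpos. All TEneg libraries lay above those of the other populations. Of the 490 genes tested, 5.51% separated upwards in TEneg against TEpos and 14.7% downwards in BEneg against TEneg. Its log2 fold change was 3.89 in TEneg against TEpos (SE 0.46, edgeR adjusted p = 5.31e-07) and -3.49 in BEneg against TEneg (SE 0.57, edgeR adjusted p = 1.32e-05), and it did not pass in BEneg against TEpos (0.39, edgeR adjusted p = 0.737). Against TEneg the BEneg call was lost with wells of at least 1500 transcripts (-3.28, edgeR adjusted p = 0.0632). The call of TEneg against TEpos was kept without the basal wells, at a log2 fold change of 5.76. Once endothelial wells were left out, Igfbp3 fell under the filter on low counts. Whether its call holds without those wells was therefore not tested. Hippo pathway components, 18 of 23 measured and none tested, took 0.0422 to 0.0538% in BEneg, 0.0641 to 0.0881% in TEneg and 0.0376 to 0.0622% in TEpos.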

How the data were processed

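Single cells of PyMT tumours and blood were measured by CEL-seq. Per gene and well, the deposited tables give an estimated count of transcripts with no scaling between wells. Mapping used BWA 0.6.2-r126 to mm10, per the submitters' processing notes; how reads were counted is not stated there. Deposited estimated counts equal 256 times the natural logarithm of 256/(256 − k) for whole k, the correction for 256 molecular barcodes. Wells with at least 500 transcripts, spike-ins left out, were summed per library and population (sums of at least 3 wells) and rounded. The library is the replicate and the block, because the deposited barcode table places the populations together in each library; within a library, residuals correlated at 0.154 (BEneg with TEneg), 0.193 (BEneg with TEpos) and 0.175 (TEneg with TEpos) on average. The labels do not tie libraries to separate animals, and a p-value covers only how these libraries vary, which may be a technical spread. Pairs of sums of 1 population differed by more than sampling noise. The same 72 well barcodes serve all 4 libraries by design.

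The fit was edgeR 4.0.16 (quasi-likelihood, TMM, filterByExpr, Benjamini-Hochberg over 490 genes, under R 4.3.3); DESeq2 1.42.0 and limma 3.58.1 (log2 of the mean transcripts per 10000 plus a pseudocount of 1) were alternatives. On data simulated for TEneg against TEpos it called 42.9% of 35 genes with a true log2 change of -1, 57.8% of 45 with 1, 100% of those with -2 or 2 and 0.4% of unchanged genes. Positions are from GENCODE for GRCm38. Doublets were not called. The sort was of 1 cell per well, which does not exclude wells with more. The large TEneg well of library 2, with 61227 transcripts, was among both the wells with basal and those with endothelial transcripts. Whether it held more than 1 cell was not tested. Members, gene lists and alternatives were chosen with earlier results of these data known. All members are named, with pathway-list genes past the threshold, the 3 genes most correlated with each tested member (1 of these is not reported here), and markers set beside a result; further list genes named for their counts were chosen after their values were seen.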

Additional observations from a re-analysis of the deposited data

Results flagged for a closer look

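Wells under 500 transcripts, used in no comparison, held more Pmepa1 than the 3 transcripts that a count of 0 allows. Pmepa1 had 7.02 transcripts in 36 BEneg wells (5.67 per 10000), 4.01 in 27 TEneg wells (5.98 per 10000) and 5.01 in 31 wells of library 2 of experiment (i) (7.37 per 10000). The 25 TEpos wells under this depth held 2.004 transcripts (5.87 per 10000). In the wells used, BEneg averaged 1.57 and TEneg 10.8 per 10000. The levels in the shallow wells rest on a few transcripts each, so they do not show whether BEneg and TEneg differ at this depth. No difference between these wells was tested.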

How the results depend on the processing

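Counts of genes called moved by over 1.5 times in some settings. For TEneg against TEpos the 31 genes became 20 without the replicate block, 99 without a filter on low counts and 55 without wells over 20000 transcripts, and 19 to 42 with 1 library left out. For BEneg against TEneg the 201 became 461 without the filter and 123 with wells of at least 1500 transcripts, and 168 to 223 with 1 library left out. For BEneg against TEpos the 236 became 581 and 133 in these settings, and 193 to 258 with 1 library left out. Leaving out the block changed no member's call (187 and 213 genes were called in the comparisons of BEneg with TEneg and with TEpos), but Junb lost its call in BEneg against TEneg (0.93, edgeR adjusted p = 0.0733). Scaling by total transcripts moved the median of all genes to -0.14, -0.24 and -0.39 (log2) in the 3 comparisons in the order above and the calls to 21 higher and 18 lower, 108 and 111, and 116 and 176, against 23 and 8, 117 and 84, and 133 and 103; limma gave 19 and 16, 107 and 159, and 109 and 202, and DESeq2 gave 21 and 2 for TEneg against TEpos.

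Pmepa1 in TEneg against TEpos lost its call without the filter (0.85, edgeR adjusted p = 0.318), with limma (0.78, adjusted p = 0.159), without library 1 and without basal wells; its adjusted p ran from 0.00197 to 0.619 over 13 alternatives. Thbs1 in BEneg against TEneg passed with limma alone (-0.79, adjusted p = 0.0441). No member of the main fit reversed. Values that did not pass and changed sign were Junb in BEneg against TEpos (0.47, then -0.0425 without the filter, and -0.0361 to 0.845 with 1 library left out, lowest without library 2), Igfbp3 in the same comparison (0.39, then -0.0794 without the filter) and Ctgf there (-1.26, then -2.04 to 0.0824 with 1 library left out, highest without library 1). Causes were not tested. Wells of BEneg were shallow, and of 18 shares of wells with a transcript 11 moved by more than 1 SD on thinning.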

Other observations

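Id1 and Id3, which encode inhibitors of helix-loop-helix factors induced by bone morphogenetic proteins, were under the filter on low counts, and they are named after their values were seen. Id1 was at 1.79 ± 0.999 per 10000 in TEneg and 0.328 ± 0.0361 in TEpos, and Id3 at 2.61 ± 0.681 in TEneg and 0.567 ± 0.659 in TEpos (SD, n = 4 libraries). Both were higher in TEneg in 4 of 4 libraries, whereas Id2 was lower in TEneg in 4 of 4 (3.33 ± 1.18 in TEneg and 5.55 ± 0.659 in TEpos) and did not pass (edgeR adjusted p = 0.495). BEneg had 1.68 ± 1.23 Id1 transcripts per 10000, higher than TEneg in 2 of 4 libraries, and 0 Id3 transcripts. Gadd45a, a stress gene on the list of YAP targets, ran the other way, with 2.07 ± 0.485 per 10000 in BEneg, 0.717 ± 0.180 in TEneg and 1.31 ± 0.315 in TEpos. The Hippo kinase gene Stk4 was at 1.76 ± 0.657 in BEneg, 0.533 ± 0.0531 in TEneg and 0.287 ± 0.213 in TEpos, and leukocyte genes, at 0.956 to 1.57% of BEneg transcripts against 0.0379 to 0.0992% in TEneg and 0.0265 to 0.123% in TEpos, moved with it; their part was not tested.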
